A study of Mus musculus with 4 samples.

Results

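Long non-coding RNAs that stay in the nucleus, imprinted long non-coding RNAs and the long non-coding host genes of small nucleolar RNAs were examined in Hepa1-6, an established mouse hepatocellular carcinoma cell line. The set holds 10 of the 54838 genes in the deposited tables. It was picked by gene symbol, with their difference between the groups already known. Malat1, Neat1, Kcnq1ot1 and Meg3 are the nuclear and imprinted RNAs. Gas5, Snhg1, Snhg3, Snhg6, Snhg8 and Snhg12 are the small nucleolar RNA hosts. Because the choice used the difference between the groups, that difference is described below with its standard error and without a p-value for any of these genes.

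The cells carried a wild-type Acvr2a gene (NC, 2 libraries) or were subclones with an Acvr2a knockout (KO, 2 libraries). Acvr2a encodes a type II receptor for activin. The labels list no treatment, and all libraries came from the same line. How many subclones the KO libraries represent is not given in the sources used here, and neither is whether libraries of a group were separate cultures. All p-values therefore measure only the spread between these libraries, which may be technical. Acvr2a itself had 81 and 108 counts in the NC libraries against 75 and 97 in the KO libraries, a log2 fold change of -0.21 (SE 0.20; edgeR quasi-likelihood, adjusted p = 0.433). Its RNA level did not separate the groups, so KO and NC below are the libraries labelled so.

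Library totals lay between 11597945 and 13910593 counts, and 12510 genes were tested. Long non-coding RNA genes took 0.722% to 0.818% of the counts. Of 10 hepatocyte markers, 7 exceeded 1 TPM (a level scaled by transcript length and library size) in every library, while Ttr, Apoh and Ahsg averaged under 1 TPM. Summed hepatocyte marker TPM was 1268 and 1205 in NC against 1419 and 1462 in KO. Of 7 tested genes 2 were called higher and 3 lower, the latter Afp (-1.21), Hnf4a (-1.0) and Foxa2 (-0.89). Of 15 markers of other liver cell types, 10 averaged under 1 TPM, among them the leukocyte marker Ptprc and the macrophage marker Adgre1. The markers of T cells (Cd3e), endothelium (Cdh5) and stellate cells (Lrat) had no count in any library. The summed TPM of this list was 87.3 and 103.1 in NC against 150.4 and 155.6 in KO, with 4 of 6 tested genes called higher and 1 lower, and its part in the results below was not tested. Cd68 (log2 fold change 1.20), Des (1.28) and Krt19 (0.73) had the lowest p there.

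Malat1 collects in nuclear speckles, bodies rich in splicing factors. Neat1 is the RNA scaffold of paraspeckles, and its long isoform is the one needed to build them. Kcnq1ot1 is transcribed antisense to Kcnq1 from the paternal chromosome and silences neighbouring genes in cis, and Meg3 is expressed from the maternal chromosome. The host genes work differently. The spliced RNA of several of them is short-lived in the cytoplasm, where nonsense-mediated decay removes it once ribosomes read it. Their introns release small nucleolar RNAs (snoRNAs). Many of these, though not all, guide modification of ribosomal RNA, box C/D RNAs for methylation and box H/ACA RNAs for pseudouridylation.

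The 3′ ends of Malat1 and Neat1 are shown first because they set these RNAs apart from ordinary messenger RNAs. Malat1 and the long Neat1 isoform end without a conventional poly(A) tail, while the short Neat1 isoform is polyadenylated. U-rich motifs fold with a genomically encoded A-rich tract into a triple helix that protects these ends. The labels do not say whether libraries were made by poly(A) selection or by ribosomal RNA depletion. The sequences below are from GENCODE M21 transcripts on GRCm38, minus strand, written 5′ to 3′ as DNA. Capitals mark TTTTGCTTTT, the longest word in the last 400 bases of both transcripts that is followed within 60 bases by its reverse complement, and that complement, AAAAGCAAAA. Both were searched on the transcript strand only and do not overlap each other. The marked pair is a word and its reverse complement, so it does not show every strand of the triple helix. The Malat1 stretch is chr19:5795982-5796037, and its last base lies 292 bases before the annotated end. The Neat1 stretch is chr19:5824708-5824770, at the annotated end of the long isoform.
Malat1-201: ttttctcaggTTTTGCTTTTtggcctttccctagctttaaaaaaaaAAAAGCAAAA
Neat1-201: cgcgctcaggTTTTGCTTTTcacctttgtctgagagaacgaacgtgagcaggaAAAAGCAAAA
Both motifs in this order, at most 60 bases apart, occurred in 4 of 141767 annotated transcripts, from 3 genes. The word was taken from Malat1 and Neat1 themselves, so their hits were fixed in advance. A shared word this long is rare by its choice, and the count does not test for a triple helix. Beside Malat1 and Neat1 the third gene was Retreg3, named after the search. The spacer between the motifs measured 26 bases in Malat1 and 33 in Neat1.

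The host genes are shown by their 5′ ends, because several belong to the class of transcripts that start with a terminal oligopyrimidine tract, as ribosomal protein messenger RNAs do. Each line holds 20 bases before and 25 from the start site in RefSeq (GRCm38.p6), and 8 of the 10 genes were in that table. Capitals mark a run of C and T that has at least 5 bases, begins with C and begins within 5 bases of the start site, read on the gene's strand only.
Gas5: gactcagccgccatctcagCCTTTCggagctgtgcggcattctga
Snhg12: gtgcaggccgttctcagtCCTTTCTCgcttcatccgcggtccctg
Snhg8: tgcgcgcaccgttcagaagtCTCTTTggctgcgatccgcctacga
Snhg3: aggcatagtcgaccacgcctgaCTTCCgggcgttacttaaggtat
Snhg1: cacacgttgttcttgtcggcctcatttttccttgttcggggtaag
Malat1: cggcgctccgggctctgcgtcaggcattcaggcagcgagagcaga
They come from chr1:161035146-161035190 (plus), chr4:132308658-132308702 (plus), chr3:123508312-123508356 (minus), chr4:132353662-132353706 (minus), chr19:8723467-8723511 (plus) and chr19:5802648-5802692 (minus), in the order printed. Gas5 has another listed start with no such run. A run was found for 4 of 5 hosts in the table, while 18.3% of all 32851 promoters hold one. The run in Snhg3 is at the minimum of 5 bases, and Meg3 has one of the same length. Snhg1 and Malat1 have none in this window. Neat1 and Snhg6 are not printed.

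The RNAs hosted in introns are shown by 1 example of each class. The class is given by its letters only, and what either RNA does was not examined. Snord47 lies in Gas5 (chr1:161038082-161038158, plus), and its capitals mark box C (TGATGA, within the first 20 bases) and box D (CTGA, within the last 15). Snora73a lies in Snhg3 (chr4:132352775-132352979, minus), and its capitals mark the ACA that stands 3 bases before the 3′ end.
Snord47-201: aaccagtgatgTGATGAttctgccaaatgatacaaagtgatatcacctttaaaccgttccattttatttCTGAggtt
Snora73a-201: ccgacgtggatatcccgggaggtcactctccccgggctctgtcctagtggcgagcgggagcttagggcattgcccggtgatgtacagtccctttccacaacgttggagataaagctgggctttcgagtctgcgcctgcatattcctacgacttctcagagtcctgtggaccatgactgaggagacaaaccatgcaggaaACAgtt
The 6 hosts carry 27 annotated snoRNA genes on their own strand, 10 in Gas5, 8 in Snhg1, 5 in Snhg12, 2 in Snhg3 and 1 each in Snhg6 and Snhg8. By these letters Gas5 held 8 C/D RNAs, Snhg1 5, and Snhg12 and Snhg6 1 each. The ACA rule fitted 3 RNAs in Snhg12, both in Snhg3 and the 1 in Snhg8. Snord80 in Gas5 and Snora16a in Snhg12 are each annotated as overlapping entries at nearly the same position. These entries were counted separately here, so distinct snoRNAs are fewer than entries. Among all 1507 annotated snoRNA transcripts, 20.2% fit the C/D rule and 18.3% the ACA rule. The snoRNAs themselves were not measurable. For 25 of the 27 genes the deposited effective length was 0, the value RSEM gives to genes shorter than its fragments, and the 27 genes together held 2 counts. Values for a host gene below are those of its annotated long transcripts and say nothing of its snoRNAs.

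Overlap of the groups was judged on counts scaled to a common library size with TMM factors (CPM). Malat1, Neat1 and Kcnq1ot1 were each higher in both KO libraries than in both NC libraries, and Meg3 was not detected. Among the hosts, Gas5, Snhg1, Snhg6 and Snhg12 were higher in both KO libraries, and Snhg3 and Snhg8 were lower. In edgeR's quasi-likelihood test, 37.9% of all genes tested had an adjusted p under 0.05, and 69.4% had groups that did not overlap. Of the 9 counted members, 6 were called higher (19.7% of all genes were), 1 was called lower (18.2%) and 2 were not called. These calls depended on the method. With DESeq2, 3 nuclear RNAs and 2 hosts were called higher. With limma on log2(TPM + 1), 2 nuclear RNAs and 1 host were. In both, 1 host was called lower, and with limma on unfiltered TPM no member was called. All 9 had groups that did not overlap in CPM, 7 higher in KO (34.8% of all genes) and 2 lower (34.7%). In TPM the groups of Snhg8 overlapped, with 62.8 and 66.5 in NC against 59.5 and 66.2 in KO. The members were chosen on this comparison, so these counts describe the choice.

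**Figure D1:**
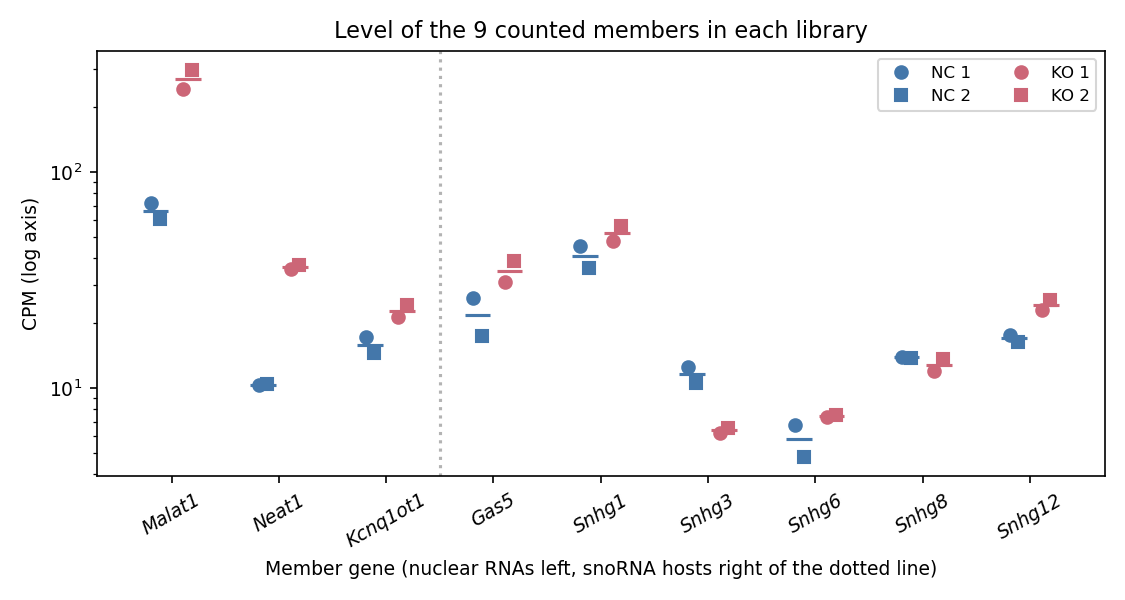
Level of the 9 counted genes in CPM on a log axis, with circles for replicate 1, squares for replicate 2, blue for NC, red for KO and a bar at each group mean. Malat1 and Neat1 show the widest gaps, from 66.1 to 270.0 CPM and from 10.4 to 36.4 CPM. Snhg3 and Snhg8 are lower in KO.

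Malat1 (ENSMUSG00000092341, chromosome 19, 5795690 to 5802672, minus strand) had 815 and 839 counts in the NC libraries against 3207 and 4007 in the KO libraries. Scaled to a common library size with TMM factors (CPM), these were 71.7 and 60.6 in NC against 243.4 and 296.6 in KO. Both KO libraries stood far above both NC libraries, and the gap between the KO libraries was smaller than the gap between groups. The mean went from 66.1 ± 7.85 to 270.0 ± 37.6 CPM (SD, n = 2), which is 4.08-fold higher in KO. The log2 fold change was 2.03 (SE 0.11), and 174 of the 12510 tested genes had a larger one. In these bulk samples, a larger share of cells with the RNA and more RNA per cell cannot be told apart.

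Neat1 (ENSMUSG00000092274, chromosome 19, 5824708 to 5845478, minus strand) lies 22.0 kb from Malat1. It had 118 and 145 counts in the NC libraries against 469 and 503 in the KO libraries, or 10.4 and 10.5 CPM against 35.6 and 37.2 CPM. Replicates nearly coincided within each group, and the groups lay far apart. The mean was 10.4 ± 0.065 CPM in NC against 36.4 ± 1.16 CPM in KO (SD, n = 2), with a log2 fold change of 1.80 (SE 0.13) and a fold of 3.49. The count ratio of Malat1 to Neat1 was 6.91 and 5.79 in NC against 6.84 and 7.97 in KO. The ratio of one KO library fell between those of the NC libraries, although both RNAs were several-fold higher.

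Kcnq1ot1 (ENSMUSG00000101609, chromosome 7, 143203458 to 143296549, minus strand) is annotated as a single unspliced transcript of 93092 bases inside Kcnq1. It had 196 and 201 counts in the NC libraries against 281 and 330.06 in the KO libraries. A fraction arises where a read is shared between genes. Gm27389, which overlaps the Kcnq1ot1 exon on the opposite strand, held 0.94 counts over all libraries. The CPM values were 17.2 and 14.5 in NC against 21.3 and 24.4 in KO. The groups did not overlap, and NC 1 and KO 1 were the nearest libraries. The mean was 15.9 ± 1.93 CPM in NC against 22.9 ± 2.19 CPM in KO (SD, n = 2), with a log2 fold change of 0.53 (SE 0.14). Kcnq1, the potassium channel gene on the opposite strand, had 0 counts in every library.

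Meg3 (ENSMUSG00000021268, chromosome 12, 109541001 to 109571726, plus strand) had 0 counts in all 4 libraries. A count of 0 allows up to 3 counts, which is 0.259 and 0.216 CPM in NC against 0.232 and 0.222 CPM in KO, for counting error only. Its imprinted neighbours Dlk1, Rtl1, Rian, Mirg, Dio3 and Begain also had 0 counts in every library. Meg3 and these 6 genes were thus not detectable at this depth, and no direction can be given for them.

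Gas5 (growth arrest specific 5; ENSMUSG00000053332, chromosome 1, 161034422 to 161038539, plus strand) had 298 and 243 counts in the NC libraries against 409 and 522 in the KO libraries. In CPM these were 26.2 and 17.5 in NC against 31.0 and 38.6 in KO. The NC libraries differed by more than the distance from the higher NC library to the lower KO library. The mean went from 21.9 ± 6.13 CPM to 34.8 ± 5.37 CPM (SD, n = 2), with a log2 fold change of 0.68 (SE 0.15). The value was 0.99 without NC 1 and 0.42 without NC 2, so the size depended on which NC library was kept.

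Snhg12 (ENSMUSG00000086290, chromosome 4, 132308623 to 132311024, plus strand) and Snhg3 (ENSMUSG00000085241, chromosome 4, 132348014 to 132353686, minus strand) lie 37.0 kb apart and differed in opposite directions. Snhg12 had 201 and 227 counts in the NC libraries against 305 and 346 in the KO libraries, or 17.7 and 16.4 against 23.2 and 25.6 CPM. Its mean was 17.0 ± 0.911 CPM in NC against 24.4 ± 1.74 CPM in KO (SD, n = 2), with a log2 fold change of 0.52 (SE 0.13). Snhg3 was the one host clearly lower in KO. Its estimated counts were 143.26 and 147.15 in NC against 81.87 and 89.22 in KO, or 12.6 and 10.6 against 6.22 and 6.59 CPM. The mean went from 11.6 ± 1.39 to 6.41 ± 0.258 CPM (SD, n = 2), 1.81-fold lower in KO with a log2 fold change of -0.85 (SE 0.18).

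The count ratio of Snhg3 to Snhg12, which needs no scaling between libraries, was 0.713 and 0.648 in NC against 0.268 and 0.258 in KO. Both KO ratios were less than either NC ratio. Snhg3 shares exons on the same strand with Rcc1, which encodes the nucleotide exchange factor of the GTPase Ran. Rcc1 held 2304.0 counts over all libraries, a whole number. The count ratio of Snhg3 to Rcc1 was 0.242 and 0.18 in NC against 0.174 and 0.209 in KO, and on this scale the groups overlapped. Snhg3 also overlaps exons of Gm17300 on the opposite strand, which held 57.5 counts over all libraries, fractional like the Snhg3 counts. How reads were split between Snhg3 and either gene was not tested, so the Snhg3 level carries this uncertainty.

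Snhg1 (ENSMUSG00000108414, chromosome 19, 8723475 to 8726443, plus strand) had 516 and 500 counts in the NC libraries against 635 and 759 in the KO libraries. Its CPM values were 45.4 and 36.1 in NC against 48.2 and 56.2 in KO, and NC 1 lay closer to KO 1 than to NC 2. The mean was 40.7 ± 6.56 CPM in NC against 52.2 ± 5.65 CPM in KO (SD, n = 2), with a log2 fold change of 0.36 (SE 0.11), which was 0.21 without NC 2.

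Snhg6 and Snhg8 were the members not called. Snhg6 (ENSMUSG00000098234, chromosome 1, 9941959 to 9944118, minus strand) had 77 and 67 counts in the NC libraries against 97 and 102 in the KO libraries. Its CPM was 6.77 and 4.84 in NC against 7.36 and 7.55 in KO, with a log2 fold change of 0.37 (SE 0.21) that was 0.62 without NC 1 and 0.14 without NC 2. Snhg8 (ENSMUSG00000104960, chromosome 3, 123507552 to 123508404, minus strand) had 159 and 192 counts in the NC libraries against 158 and 184 in the KO libraries. Its CPM was 14.0 and 13.9 in NC against 12.0 and 13.6 in KO, with a log2 fold change of -0.12 (SE 0.15) that was -0.029 without KO 1 and -0.22 without KO 2. The KO 2 value of Snhg8 was close to both NC values, and its SE exceeded its difference. Snhg6 overlaps exons of Mcmdc2 on the opposite strand, which held 4 counts in all.

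Levels of different genes can be compared only per length, so TPM was used for the order within each group. In NC the order by mean TPM was Snhg1 (105.1 ± 12.7), Snhg8 (64.6 ± 2.62), Snhg3 (62.8 ± 3.67), Gas5 (52.9 ± 9.75), Snhg12 (47.3 ± 1.82), Malat1 (29.1 ± 3.30), Snhg6 (14.3 ± 2.21), Neat1 (3.54 ± 0.127) and Kcnq1ot1 (0.185 ± 0.021; SD, n = 2 for each). The means of Snhg8 and Snhg3 differed by less than the sum of their SDs, as did those of Gas5 and Snhg3 and of Gas5 and Snhg12. In KO the order was Snhg1 (135.9 ± 13.8), Malat1 (114.0 ± 34.2), Gas5 (71.6 ± 2.20), Snhg12 (68.9 ± 0.509), Snhg8 (62.8 ± 4.75), Snhg3 (36.9 ± 0.170), Snhg6 (17.6 ± 0.615), Neat1 (13.5 ± 0.403) and Kcnq1ot1 (0.280 ± 0.014). Snhg1 and Malat1 overlapped there. Malat1 moved from the sixth place to the second, and Snhg3 from the third to the sixth. Kcnq1ot1 is low on this scale because its counts spread over 93092 bases.

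The nuclear RNAs were compared with the hosts inside each library, where the scaling between libraries cancels. Summed TPM of the nuclear and imprinted members was 0.0963 and 0.0925 of the summed host TPM in NC, and 0.272 and 0.373 in KO. Both KO ratios were above both NC ratios. Malat1 made up 87.0% to 90.8% of the nuclear sum, so the ratio was also taken without it. It was then 0.010 and 0.0115 in NC against 0.0355 and 0.0344 in KO. The median log2 fold change was 1.80 for the 3 counted nuclear RNAs and 0.37 for the 6 hosts, against -0.0037 over all genes tested. Kcnq1ot1, at 0.53, lay inside the range of the hosts.

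**Figure D2:**
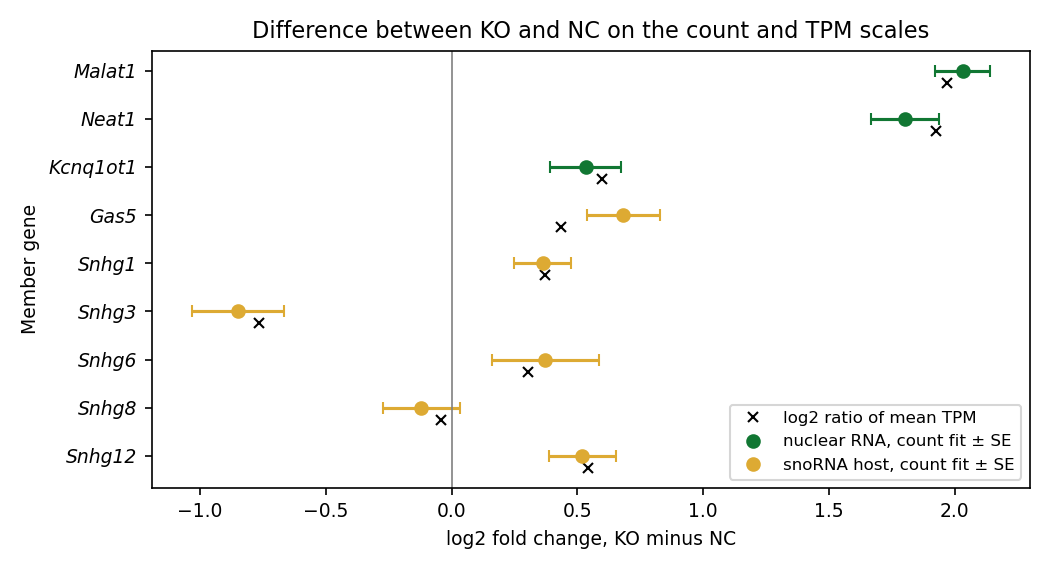
Log2 fold change of each counted gene, KO minus NC, from the count fit with its standard error (green for nuclear RNAs, yellow for hosts), and the log2 ratio of mean TPM (black crosses). Malat1 at 2.03 and Neat1 at 1.80 stand apart from the other genes, and Gas5 shows the widest gap between the scales.

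Counts and TPM can differ for one gene because TPM divides by a length that the deposited tables weight by the estimated isoform mix. This length was examined as a readout of isoforms. For Gas5 it was 704 and 669 bases in NC and 757 and 828 in KO, both KO values above both NC values and 15.4% higher on average. The Gas5 difference was accordingly smaller on the TPM scale, at 1.35-fold (59.8 and 46.0 TPM in NC, 70.0 and 73.2 in KO), than the 1.59-fold on the count scale. GENCODE lists 25 Gas5 isoforms, 20 of which retain an intron. The retained-intron isoforms have a median length of 674 bases and the others 502. The files give no values per isoform, so which isoforms took more reads was not measured.

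The weighted length of Malat1 was 2667 and 2772 bases in NC and 3380 and 2624 in KO, so KO 1 stood apart and the groups overlapped. Its TPM in KO was 89.9 and 138.2, a wider spread than its CPM showed. The 4 Malat1 isoforms in GENCODE M21 run from 485 to 6983 bases, while the deposited tables list 5 transcripts, so the lengths rest on another isoform set. For Neat1 the length was 3439 and 3460 bases in NC and 3370 and 3248 in KO, or -4.07% on average. Both KO values were below both NC values. Neat1 isoforms span 711 to 20771 bases. A mixture with these lengths can hold the long isoform in at most 13.6% and 13.7% of molecules in NC and 13.3% and 12.6% in KO. This bound comes from estimated lengths and is no measurement of the long form. For the other hosts the mean weighted length differed by -0.54% to 6.19%. Snhg6 (693 and 667 bases in NC, 716 and 728 in KO) and Snhg1 (661 and 663 in NC, 687 and 669 in KO) were also longer in both KO libraries. The share of all genes with such a gap in length was not computed.

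**Figure D3:**
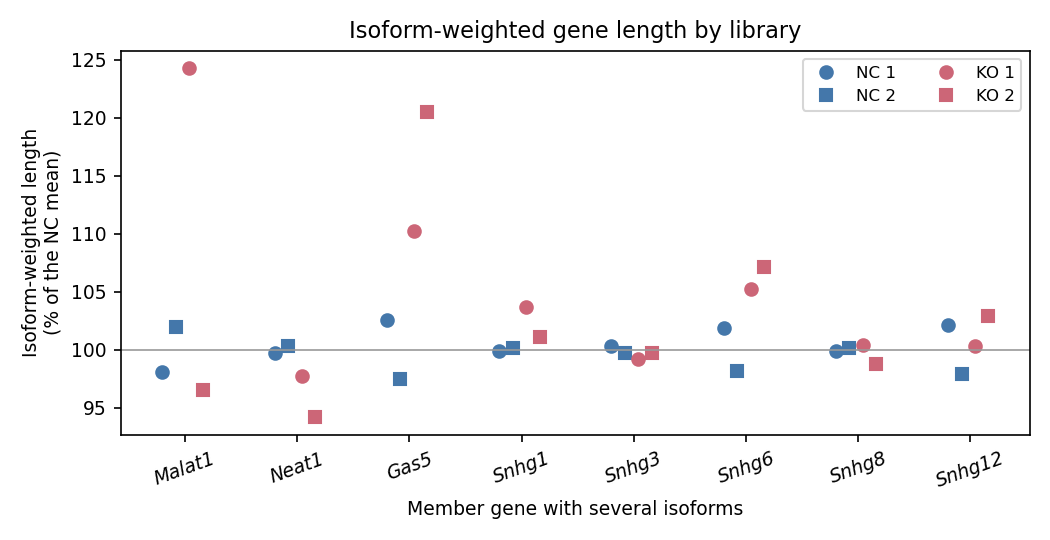
Isoform-weighted gene length in each library as a percentage of the NC mean of that gene, for the 8 genes with several isoforms (blue NC, red KO, circles replicate 1, squares replicate 2). Gas5, Snhg6 and Snhg1 are longer in both KO libraries, Gas5 by the most, and Neat1 is shorter in both. For Malat1 a single KO library is high.

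Other RNAs of the same kinds were then listed, with genes of related proteins. Of all genes tested 37.9% were called. The share called was 42.9% for other long non-coding hosts and for decay factors, and 35% for protein-coding hosts and for paraspeckle proteins. It was 40% in the Kcnq1 cluster, 56.25% for snoRNA proteins and 58.3% for other imprinted genes. It was 60% for other nuclear long non-coding RNAs and 62.5% for speckle proteins. No list was tested against the share over all genes. Of 15 further long non-coding snoRNA hosts, 7 were tested, 3 rose and 4 were not called, with a median log2 fold change of 0.28. Snhg17 went from 49.3 ± 0.498 CPM to 120.6 ± 9.59 CPM (SD, n = 2), with a log2 fold change of 1.29 (SE 0.098; edgeR quasi-likelihood, adjusted p = 7.21e-11). This exceeded the log2 fold change of every host among the members. Snhg5 (0.73, SE 0.19, adjusted p = 0.00417 by edgeR) and Snhg15 (0.63, SE 0.17, adjusted p = 0.00543 by edgeR) were also higher. Snhg15 lost its call with DESeq2 and without NC 2, and Snhg5 without KO 1. Zfas1, Dancr, Snhg20 and Epb41l4aos were not called, with values from 0.048 to 0.28.

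Among 20 protein-coding genes that host snoRNAs, 1 rose, 6 fell and 13 were not called, with a median of -0.085 that was -0.16 without KO 1. Without NC 1, 3 were called lower. Eif4a2, a translation initiation helicase gene, rose from 61.2 ± 12.7 to 128.8 ± 15.8 CPM (SD, n = 2; log2 fold change 1.08, edgeR adjusted p = 3.51e-08). The chaperone gene Hspa8 fell (-0.41, edgeR adjusted p = 0.00135).

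The proteins that package and mature snoRNAs were lower or not called. Of 16, none rose and 9 fell, with a median of -0.40 that was -0.28 without KO 2. With limma on log2(TPM + 1), 3 were called lower, and with limma on unfiltered TPM none was. Gar1, a box H/ACA core protein gene, went from 31.7 ± 0.416 CPM to 18.2 ± 1.43 CPM (SD, n = 2), with a log2 fold change of -0.80 (SE 0.13; edgeR adjusted p = 1.51e-05). Fbl, the box C/D methyltransferase gene, had a log2 fold change of -0.65 (edgeR adjusted p = 3.25e-06), and Snu13, whose protein binds the C/D fold, had -0.56 (edgeR adjusted p = 5.88e-05).

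Nonsense-mediated decay factors went both ways. Of 14 tested, 2 rose and 4 fell, with a median of -0.12 that was -0.23 without KO 1 and -0.044 without KO 2. A single gene was called higher without NC 1, without NC 2 or without KO 1. Upf1, the central helicase of the pathway, fell from 106.5 ± 11.9 to 77.7 ± 4.55 CPM (SD, n = 2; log2 fold change -0.46, SE 0.098, edgeR adjusted p = 0.000582). Eif4a3, an exon junction complex gene, fell as well (-0.58, edgeR adjusted p = 7.51e-05), while Smg1, the kinase that acts on Upf1, rose (0.48, edgeR adjusted p = 0.000475). The calls for Upf1 and Eif4a3 were lost on the TPM scale.

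Genes of paraspeckle proteins had smaller differences than Neat1. Of 20 tested, 1 rose, 6 fell and 13 were not called, with a median of -0.057 against 1.80 for the RNA. Sfpq, a core paraspeckle protein gene, had 268.6 ± 19.2 CPM in NC against 192.8 ± 14.6 CPM in KO (SD, n = 2), with a log2 fold change of -0.48 (SE 0.094; edgeR adjusted p = 0.000215). Rbm14 fell (-0.40, edgeR adjusted p = 0.00454) and Hnrnph1 rose (0.46, edgeR adjusted p = 0.000388). Without NC 2 the list had 2 lower calls and a median of 0.0096, and without KO 2 it had 3 lower calls. The calls for Sfpq and Rbm14 were lost on the TPM scale, and that for Rbm14 also without NC 2 (-0.26, edgeR adjusted p = 0.115) and without KO 2 (-0.24, edgeR adjusted p = 0.0976). Nono and Pspc1, the partners of Sfpq, singled out after their values were seen, were not called.

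Genes of nuclear speckles, where Malat1 resides, were mixed: 7 of 16 rose, 3 fell and the median was 0.18. Without NC 1 or without KO 2 a single gene was called lower. Pnisr, an arginine- and serine-rich protein gene, rose from 42.0 ± 2.26 to 78.6 ± 0.999 CPM (SD, n = 2; log2 fold change 0.90, edgeR adjusted p = 5.85e-08). Srsf5 rose (0.65, edgeR adjusted p = 6.98e-06) and Srsf1 fell (-0.56, edgeR adjusted p = 3.24e-05), both encoding SR splicing factors. The Srsf1 call was lost on the TPM scale, where no gene of this list passed in the lower direction.

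Other nuclear long non-coding RNAs also varied, so a higher level was not shared by all of them. Of 18 listed, 10 were tested, 4 rose and 2 fell, with a median of 0.14 that was 0.073 without KO 2 and 0.29 with no filter on low counts. Xist, the RNA that coats the inactive X chromosome, was far more abundant by count than any member, at 500.8 ± 55.7 CPM in NC against 820.2 ± 194.1 CPM in KO (SD, n = 2; log2 fold change 0.71, SE 0.12, edgeR adjusted p = 2.81e-05). Its log2 fold change was 0.45 without KO 2 and 0.94 without KO 1. Mir22hg, the host of a microRNA, had 24 and 25 counts in the NC libraries against 109 and 122.76 in the KO libraries (log2 fold change 2.15, SE 0.25, edgeR adjusted p = 1.94e-07). Rn7sk, the RNA that holds the elongation factor P-TEFb inactive, had 63 and 40 counts in the NC libraries against 22 and 18 in the KO libraries (log2 fold change -1.46, SE 0.35, edgeR adjusted p = 0.00175), and the call was lost without NC 1. Over the 624 other long non-coding RNA genes tested, a class added after values were seen, 102 rose and 60 fell, 26.0% in all, with a median of 0.088.

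**Figure D4:**
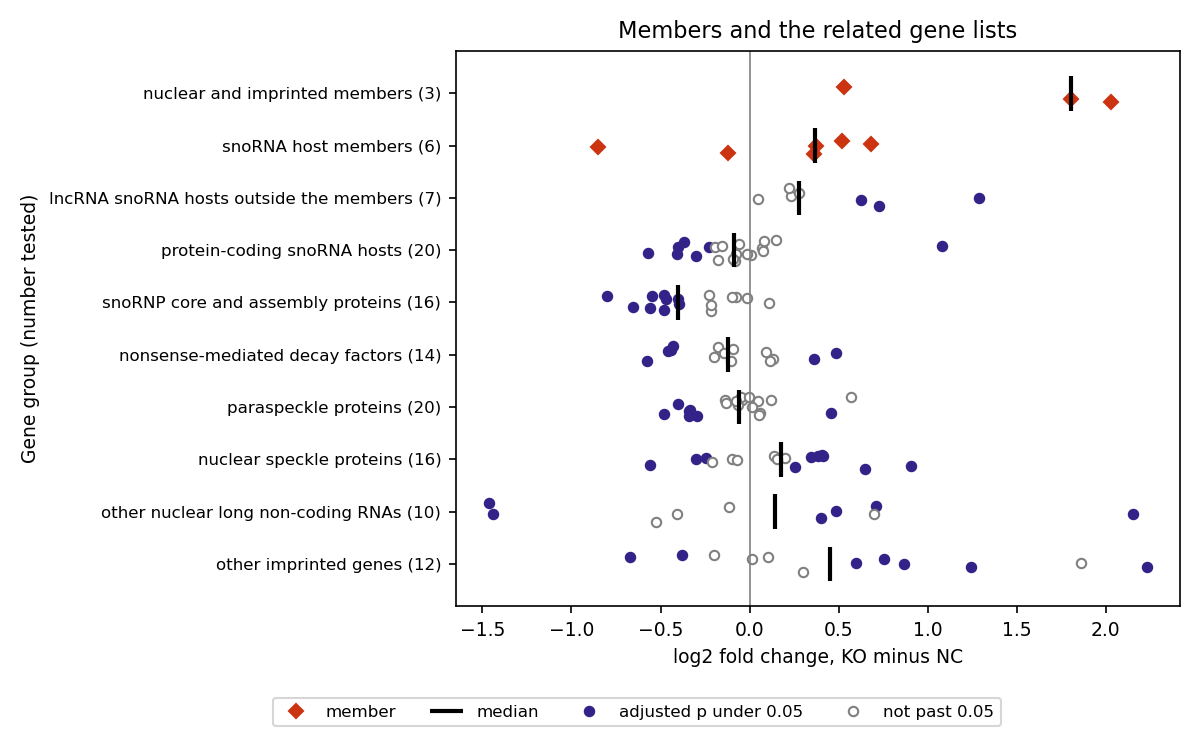
Log2 fold change, KO minus NC, of each tested gene in the member classes and 8 related lists, with red diamonds for members, filled circles for listed genes with an adjusted p under 0.05 in edgeR's quasi-likelihood test, open circles for the rest and a black bar at the median. The nuclear members have a median of 1.80 and the snoRNA protein list one of -0.40.

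In the imprinted cluster around Kcnq1ot1, 5 of 11 listed genes were tested, 2 rose and none fell. Cd81, a tetraspanin gene, had 406.1 ± 4.59 CPM in NC against 569.7 ± 8.46 CPM in KO (SD, n = 2; log2 fold change 0.49, SE 0.091, edgeR adjusted p = 0.000130). Ascl2, a transcription factor gene, had 3 and 6 counts in the NC libraries against 17 and 28 in the KO libraries (log2 fold change 2.21, SE 0.54, edgeR adjusted p = 0.00198). Tssc4, Nap1l4 and Osbpl5 were not called, with values of -0.11, -0.13 and -0.10. Slc22a18 had 2 and 1 counts in KO and 0 in NC, and Tspan32 had 1 count in NC and 3 in KO. Kcnq1, Cdkn1c, Phlda2 and Th, of which Cdkn1c and Phlda2 are known targets of Kcnq1ot1, had 0 counts in every library.

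Of 30 other imprinted genes, 12 were tested, 5 rose and 2 fell, with a median of 0.45, and 12 had no count. Without KO 2, 3 were called higher and the median was 0.24. Igf2r, the maternally expressed receptor that clears Igf2, rose from 6.62 ± 0.471 to 15.6 ± 0.859 CPM (SD, n = 2; log2 fold change 1.24, SE 0.17, edgeR adjusted p = 1.79e-06). Airn, the antisense RNA that silences Igf2r on the paternal chromosome and was singled out after its values were seen, had 50 and 62 counts in the NC libraries against 89 and 128 in the KO libraries (log2 fold change 0.87, edgeR adjusted p = 0.00301). The amino acid transporter gene Slc38a4 rose (0.75, edgeR adjusted p = 2.40e-05) and Ube3a, a ubiquitin ligase gene, fell (-0.67, edgeR adjusted p = 1.04e-05), a call lost on the TPM scale.

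Neighbours were taken by position, as the nearest tested protein-coding genes. Frmd8, on the minus strand like Malat1 and Neat1 and only 4.2 kb from Neat1, had 79.7 and 67.9 CPM in NC against 57.2 and 56.8 in KO (log2 fold change -0.37, SE 0.10, edgeR adjusted p = 0.00445). Frmd8 thus fell while Neat1 and Malat1 were higher. Among the 47 tested genes within 500 kb of Malat1 that are not members, Frmd8 included, 5 rose and 18 fell, with a median of -0.13. The highest of these was Snx32 at 2.89 (SE 0.71), named after its value was seen.

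Around Snhg12 the other 19 tested genes within 500 kb had a median of -0.076, with 1 higher and 4 lower. Trnau1ap, 0.7 kb from Snhg12, had a log2 fold change of -0.08 (SE 0.18), and Taf12 had -0.13 (SE 0.18), neither called. Rcc1 had 52.0 and 58.9 CPM in NC against 35.8 and 31.5 in KO (log2 fold change -0.72, SE 0.11, edgeR adjusted p = 7.07e-06). On its other side Snhg3 is next to Phactr4 (-0.39, edgeR adjusted p = 0.00496). Snhg3 was thus lower together with both of its neighbours, and Snhg12 was higher between genes that were not called.

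**Figure D5:**
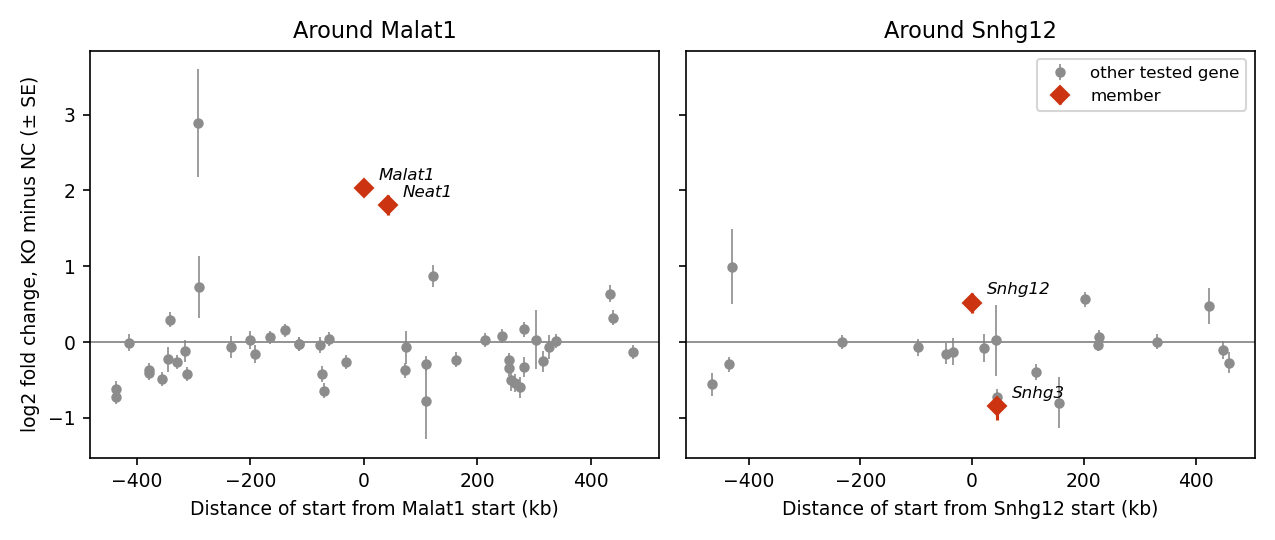
Log2 fold change with its standard error for every tested gene within 500 kb of Malat1 (left) and of Snhg12 (right), against the distance between start positions in kb, with members as red diamonds. Malat1 and Neat1 stand at 2.03 and 1.80 while Frmd8 beside Neat1 is below 0, and Snhg12 and Snhg3 lie on opposite sides of 0.

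Neighbours of the remaining hosts were mixed. Zbtb37, which adjoins Gas5 on the opposite strand, fell (-0.59, SE 0.19, edgeR adjusted p = 0.0170), and the count ratio of Gas5 to Zbtb37 was 3.0 and 1.65 in NC against 5.15 and 5.62 in KO. Slc3a2, which starts 0.1 kb from Snhg1 on the opposite strand, was not called (-0.02, SE 0.094), while Wdr74 fell (-0.42, edgeR adjusted p = 0.00201). The nearest tested protein-coding genes to Snhg6 lay farther off. Sgk3, 41.1 kb away, had a log2 fold change of -1.0 (edgeR adjusted p = 3.28e-06). Cops5, 80.5 kb away, had one of -0.33 (edgeR adjusted p = 0.00696). Across the 11 other tested genes within 500 kb of Kcnq1ot1 the median was -0.10, with 2 higher and 2 lower.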

How the data were processed

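RNA from 4 libraries of Hepa1-6 cells (2 NC, 2 KO) was sequenced after preparation with a directional kit, per the labels. The authors deposited 1 gene table per library with expected counts (estimated read counts, not normalised), TPM, length and effective length, per the file headers. FastQC, STAR, RSEM and DESeq2 and the build GRCm38 (mm10) are named, per the submitters' processing notes; the annotation release, strand setting and versions are not given in the sources used here. Gene IDs were matched to GENCODE M21 (54809 of 54838). The deposited effective length is the length left after the fragment size.

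Expected counts were rounded, filtered with filterByExpr, scaled with TMM (factors 0.981 to 1.02) and fitted with edgeR 4.0.16 (R 4.3.3) quasi-likelihood, with group as the only term. P-values were adjusted by Benjamini-Hochberg across 12510 genes and called under 0.05. Standard errors are the log2 fold change divided by the root of its F value. With n = 2 the SD is poorly known, and the fit borrows spread across genes. The script was tested on simulated data. Intervals and floors cover counting error only.

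The members and lists were chosen with earlier results of these data known. Genes named from a list are up to 3 with the lowest p past 0.05, and in the imprinted clusters every gene with a count. Some genes that meet these rules are not reported here. Alternatives were DESeq2 1.42.0 and its size factors, no TMM, no filter, limma 3.58.1 on log2(TPM + 1) and log2(TPM + 0.1), leaving out each library, and a replicate block. Of 191 listed genes 4 were not matched by symbol. The authors' deposited FPKM values (fragments scaled by length and library, per the file headers) were not used.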

Additional observations from a re-analysis of the deposited data

How the results depend on the processing

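The medians of the Kcnq1 cluster and of the paraspeckle list changed sign under alternatives, and the other medians and the single genes recomputed (members and genes named from the lists by rule) kept theirs. The count of genes past 0.05, 4741 in the count fit, was 2158 with limma on log2(TPM + 1) and 2099 on log2(TPM + 0.1), with 68.0% higher in both against 51.9%. It was 0 with limma on unfiltered TPM (4506 at an unadjusted p under 0.05; edgeR without a filter called 4730), and 3586 to 4472 when 1 library was left out. The median of the host members ranged from 0.18 to 0.55 without 1 library (0.55 without NC 1, 0.18 without NC 2). The median of the other long non-coding hosts was 0.61 with no filter on low counts and 0.19 to 0.67 without 1 library (0.67 without NC 1, 0.43 without KO 1). The speckle median was 0.27 in the 3 TPM fits and 0.12 to 0.25 without 1 library. The Kcnq1 cluster median, -0.10 in the count fit, was 0.47 with no filter on low counts, 0.028 with unfiltered TPM and -0.016 to -0.077 without 1 library, and that of the other imprinted genes was 0.12 with unfiltered TPM and 0.24 to 0.63 without 1 library (0.24 without KO 2). The paraspeckle median ran from -0.13 (without KO 1) to 0.0096 (without NC 2). The cause of these shifts was not tested, except that fewer or more genes entered the unfiltered fits. Among results for single genes, 50 lost their call, 32 of them with unfiltered TPM, and none changed direction. Calls of the members were not part of this count of lost calls. Kcnq1ot1, at under 1 TPM, was 0.11 on log2(TPM + 1).

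The replicate numbers are shared between the groups, but nothing says what a number stands for, and the deviations of same-numbered libraries correlated at -0.012 across genes, with 2 pairs only. With a replicate block 5006 genes passed against 4741. In the lists, the block gave 4 higher calls in place of 3 among the other long non-coding hosts, 5 lower in place of 6 among the protein-coding hosts and 7 higher in place of 5 among the other imprinted genes. Each gene named from the lists by rule kept its call under the block. The effective length was 0 for 25 of the 27 snoRNA genes, and whether depth or library preparation also limited their counts was not tested.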
